A study of Mus musculus with 12 samples.

Results

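The comparison set the aorta of ApoE-deficient mice on a high-fat diet (HFD) against that of ApoE-deficient mice on a normal diet (NFD), across all genes counted by RNA sequencing. It used the 8 libraries of these diets among the 12 libraries of the series, 4 for each diet, and the 4 libraries of the high-fat diet with tauroursodeoxycholic acid were left out. The HFD mice ate feed with 16% fat and 0.25% cholesterol, and the NFD mice ate feed with 5% fat and no cholesterol. All were male ApoE-/- mice that started at 8 weeks of age, ate their diet for 8 weeks and then received saline by gavage every day for 4 weeks, so neither group was free of handling. The aorta was taken along its length, the ascending part included, as far as the bifurcation. The labels do not say whether a library came from 1 mouse or from several, so the p-values measure only the spread between these libraries, which may be technical.

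Mice without apolipoprotein E clear remnant lipoproteins poorly, and cholesterol in the feed raises their plasma lipids further. Lipoproteins kept in the artery wall are taken up by macrophages, which degrade them in lysosomes, store the cholesterol as droplets and become foam cells. Plaques also hold neutrophils, lymphocytes and smooth muscle cells that have left their contractile state, and enzymes from these cells cut the collagen and elastin of the wall.

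The 4 genes that mark the comparison were far higher in HFD. Mmp12, the macrophage elastase (chromosome 9, 7344381 to 7369499, plus strand), had 63.3, 114, 157 and 80.4 counts-per-million (CPM) in HFD replicates 1 to 4, against 2.08, 1.69, 1.51 and 1.96 CPM in NFD replicates 1 to 4. Gpnmb, a membrane glycoprotein of lipid-loaded macrophages (chromosome 6, 49036546 to 49070929, plus strand), had 705, 464, 1415 and 624 CPM in HFD and 14.8, 19.0, 20.9 and 15.3 CPM in NFD. The groups were far apart for both, and HFD replicate 3 held the highest value of each. Cd68, a lysosomal glycoprotein of macrophages, had 246, 159, 197 and 179 CPM in HFD and 44.0, 53.6, 36.5 and 47.9 CPM in NFD. Abcg1, which exports cholesterol to lipoprotein particles, had 257, 212, 181 and 202 CPM in HFD and 67.7, 74.4, 66.4 and 62.7 CPM in NFD. The log2 fold changes (± SE) were 5.83 ± 0.33 for Mmp12, 5.52 ± 0.39 for Gpnmb, 2.10 ± 0.18 for Cd68 and 1.65 ± 0.14 for Abcg1, and their edgeR adjusted p-values ran between 0.000173 and 0.00122. All 4 kept their call in each of the 8 fits that left out 1 library.

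Genes that mark the aortic wall were expressed in all 8 libraries. Acta2, the actin of smooth muscle, had 710 to 1435 CPM in HFD and 1190 to 1648 CPM in NFD, Myh11, its myosin, 285 to 522 CPM in HFD and 344 to 536 CPM in NFD, and Pecam1, of endothelium, 470 to 615 CPM in HFD and 576 to 731 CPM in NFD. None of the 3 passed the test. Apoe transcripts were counted in every library, at 14.99 to 22.6 CPM in HFD and 11.4 to 17.1 CPM in NFD, which does not check the genotype because a count per gene does not show the exons read. Total counts were 15199324 to 19808340 per library, 16532 to 17121 genes had a count, and a count of 0 allowed 0.152 to 0.197 CPM, for counting error only. The HFD libraries were spread wider than the NFD libraries: correlations of log2 CPM were 0.919 to 0.950 within HFD and 0.958 to 0.981 within NFD. On the first principal component, with 43.4% of the variance, HFD replicates 1 and 4 lay at -71.3 and -67.9, HFD replicates 2 and 3 at -15.5 and -26.1, and the NFD libraries at 42.7 to 48.2. Results are therefore also given without HFD replicates 1 and 4.

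Of 14918 genes tested, 475 were higher in HFD (3.18%) and 245 lower (1.64%), called at a Benjamini-Hochberg adjusted p under 0.05 from edgeR's quasi-likelihood test. The median log2 fold change was 1.49 among the genes called higher, -1.38 among those called lower and 0.04 over all genes tested. Of all genes tested, 8037 had a positive log2 fold change and 6864 a negative one. Genes of the lists described below were measured in the same 8 libraries, so the signs within a list are not independent. Counts of list members are to be read against the shares of 3.18% higher and 1.64% lower. A change of at least 4-fold was seen in 169 genes called higher and 61 called lower, and one of at least 16-fold in 43 called higher and 16 called lower. At least 2-fold changes were called in 346 and 186 genes, 3.57% of all genes tested. All HFD libraries lay above all NFD libraries in 471 of the 475 genes called higher, against 8.09% of all genes tested, and below them in 244 of the 245 called lower, against 6.72% of all. The genes were called from these same libraries, so this separation is no separate test of the calls. Without HFD replicates 1 and 4, 259 genes were called higher and 115 lower. Leaving out 1 library gave 124 to 759 higher and 40 to 422 lower, with 148 higher and 40 lower without NFD replicate 1, 247 and 116 without NFD replicate 2, 124 and 54 without NFD replicate 3, and 207 and 75 without NFD replicate 4. Without HFD replicate 1 the counts were 331 and 143, without HFD replicate 2 480 and 390, and without HFD replicate 3 759 and 422. With upper-quartile scaling the split was 407 higher and 332 lower.

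**Figure D1:**
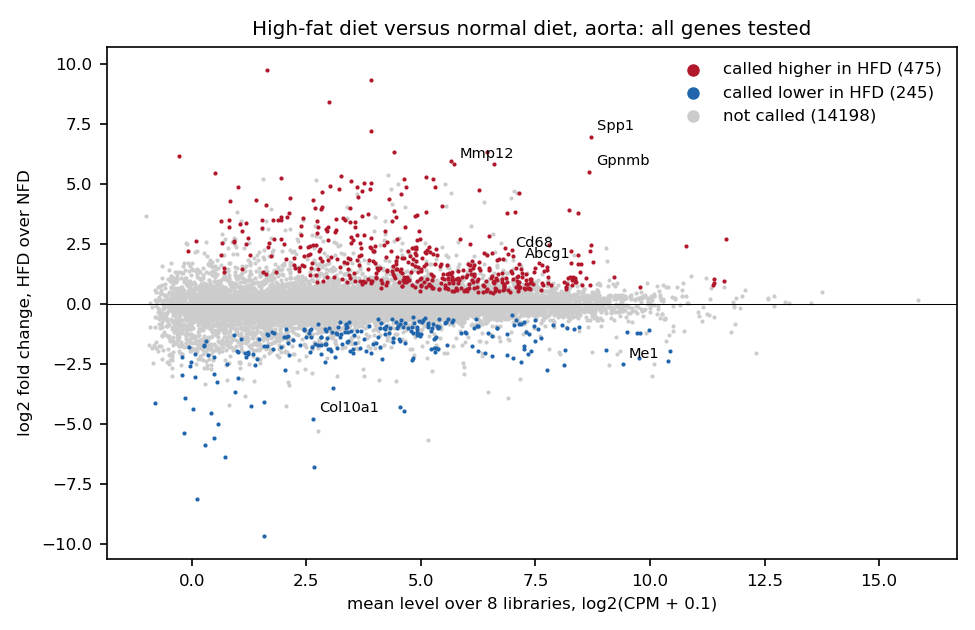
Log2 fold change of HFD over NFD (vertical axis) against the mean level over the 8 libraries in log2(CPM + 0.1) (horizontal axis), 1 point per gene tested. Red points are the 475 genes called higher in HFD, blue points the 245 called lower and grey points the genes not called; Mmp12, Gpnmb, Cd68 and Abcg1 lie above the zero line, Col10a1 and Me1 below it.

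HFD varied more between libraries in most genes, called or not. The median SD of log2 CPM over 4 libraries was 0.39 in HFD and 0.22 in NFD, and 11931 genes (80.0%) had the larger SD in HFD. Among genes called higher, 188 had their highest HFD level in replicate 4, 181 in replicate 1, 54 in replicate 3 and 52 in replicate 2. Among genes called lower, 136 had their lowest HFD level in replicate 1, 53 in replicate 4, 32 in replicate 2 and 24 in replicate 3.

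The 12 higher genes with the lowest adjusted p were the 4 markers and Clec4d, Slc15a3, Hk3, Gpr137b, Cd5l, Csf3r, Cd44 and Trem1. Cd5l, a protein that macrophages secrete, had 618, 516, 439 and 476 CPM in HFD and 104, 123, 82.0 and 140 CPM in NFD (log2 fold change 2.19 ± 0.20, edgeR adjusted p = 0.00131). Hk3, the hexokinase of leukocytes, had 37.3, 23.8, 35.9 and 37.5 CPM in HFD and 7.003, 7.33, 7.07 and 7.41 CPM in NFD. Slc15a3, a peptide and histidine carrier of the lysosomal membrane, had 42.4 to 74.6 CPM in HFD and 7.78 to 8.87 CPM in NFD. Cd44, the receptor for hyaluronan, was among the steadiest, with 125 to 141 CPM in HFD and 38.8 to 54.0 CPM in NFD. Bulk RNA cannot tell a larger number of cells of a type from more RNA of a gene in each cell, nor fewer cells from less RNA per cell.

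The 12 lower genes that ranked first in the same way were Ppp1r1b, Nsdhl, Inka2, Col4a4, Col10a1, Tmem45b, Amotl2, Angptl7, Tob1, Plekha6, Tcap and Ptgfr. Ppp1r1b, an inhibitor of protein phosphatase 1 (chromosome 11, 98348404 to 98357796, plus strand), had 4.51, 6.76, 5.497 and 6.09 CPM in HFD and 18.7, 19.7, 25.1 and 24.1 CPM in NFD (log2 fold change -1.94 ± 0.19, edgeR adjusted p = 0.00143). Amotl2, a junction protein of the angiomotin family, had 39.9 to 54.2 CPM in HFD and 86.5 to 103 CPM in NFD. Ptgfr, the receptor for prostaglandin F2α, had 2.64, 5.22, 6.44 and 3.495 CPM in HFD and 17.2, 14.7, 24.2 and 17.3 CPM in NFD. All 24 genes of the lists of 12 kept their call in each fit without 1 library. They were picked for their low adjusted p in these same libraries, so this is no separate test of them.

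**Figure D2:**
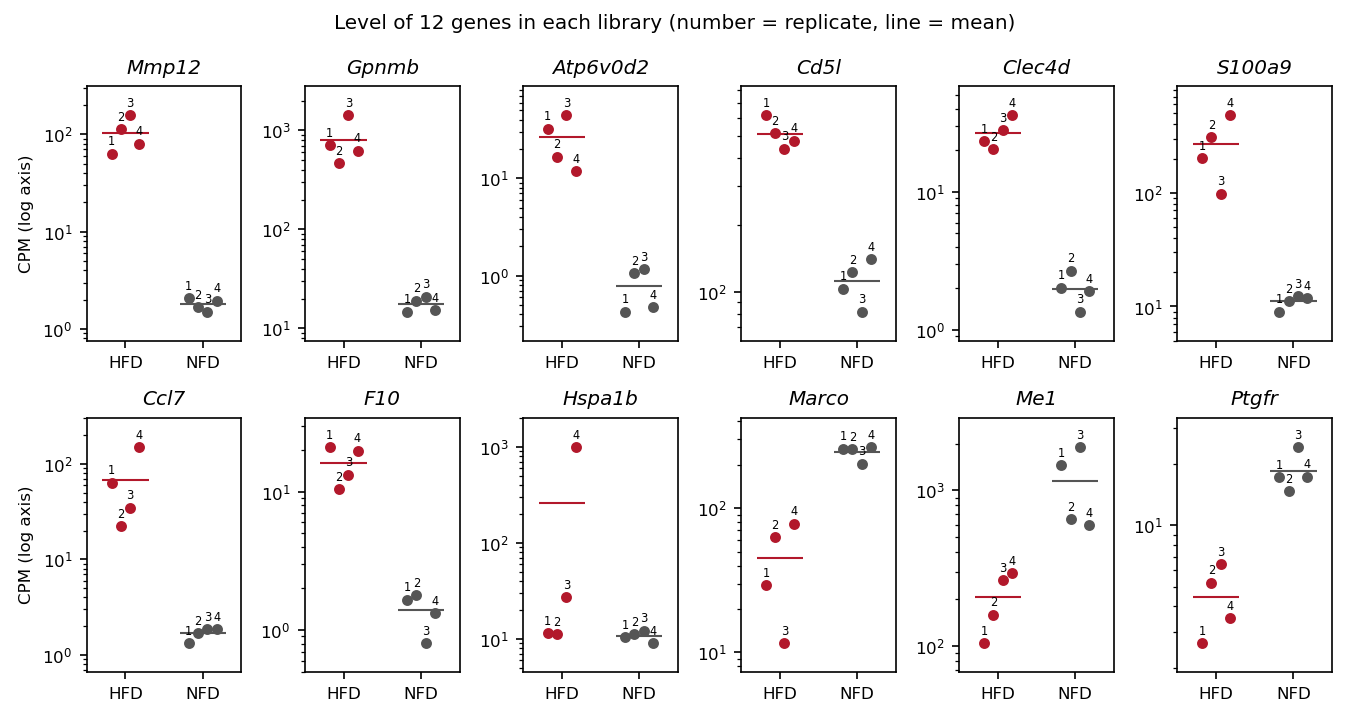
Level in CPM (log axis) of 12 genes in each library, HFD left of NFD, with the replicate number at each point and a line at the mean of 4 libraries. The groups do not overlap in Mmp12, Gpnmb, Atp6v0d2, Cd5l, Clec4d, S100a9, Ccl7, F10, Marco, Me1 and Ptgfr, and Hspa1b was highest in HFD replicate 4, at 1005 CPM.

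Of 35 lysosomal hydrolases tested, 22 were higher (62.9%, against 3.18% of all genes tested) and none lower, 34 had a positive log2 fold change, and the median was 0.78, against 0.04 over all genes tested. Their summed level was 16100 to 19780 CPM in HFD and 8881 to 10660 CPM in NFD, so the groups did not overlap. The exception in sign was Smpd1, acid sphingomyelinase, at -0.43 ± 0.18, which did not pass the test (edgeR adjusted p = 0.211). The count fell to 6 without NFD replicate 3 and to 11 without HFD replicates 1 and 4, and was at most 20 in the fits without 1 library.

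Among the hydrolases that kept their call in every such fit were the proteases Ctss and Lgmn and the glycosidases Gusb and Gla. Ctss, cathepsin S, a protease that cuts elastin and the invariant chain, had 996, 526, 779 and 406 CPM in HFD and 163, 168, 131 and 131 CPM in NFD (log2 fold change 2.19 ± 0.28, edgeR adjusted p = 0.00381). Lgmn, legumain, had 706, 337, 467 and 400 CPM in HFD and 127, 147, 133 and 178 CPM in NFD. Both were highest in HFD replicate 1. The glycosidases were more even: Gusb, beta-glucuronidase, had 154 to 208 CPM in HFD and 64.1 to 79.9 CPM in NFD, and Gla, alpha-galactosidase A, 25.4 to 36.4 CPM in HFD and 10.1 to 12.7 CPM in NFD. Lipa, the acid lipase that frees cholesterol from its esters, had 214, 213, 254 and 161 CPM in HFD and 97.2, 110, 98.8 and 111 CPM in NFD (log2 fold change 1.01 ± 0.16, edgeR adjusted p = 0.00922), and lost its call without NFD replicate 3 (adjusted p = 0.0571).

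Of 14 proteins of the lysosomal membrane, 4 were higher and none lower, with a median of 0.45: Cd68, Laptm5, Cd63 and Clcn7. Without NFD replicate 1 or 3, or without HFD replicates 1 and 4, 1 membrane protein was called. Of 17 subunits of the proton pump, 2 were higher, with a median of 0.39, and both kept their call in every fit. Atp6v0d2, a subunit made in macrophages and osteoclasts (chromosome 4, 19876841 to 19922605, minus strand), had 32.3, 16.7, 44.3 and 11.9 CPM in HFD and 0.428, 1.05, 1.16 and 0.476 CPM in NFD (log2 fold change 5.06 ± 0.53, edgeR adjusted p = 0.00199). Tcirg1, the a3 subunit of osteoclasts and macrophages, had 82.5, 60.7, 59.8 and 60.8 CPM in HFD and 31.4, 32.1, 28.8 and 32.2 CPM in NFD. The other 15 subunits did not pass the test.

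**Figure D3:**
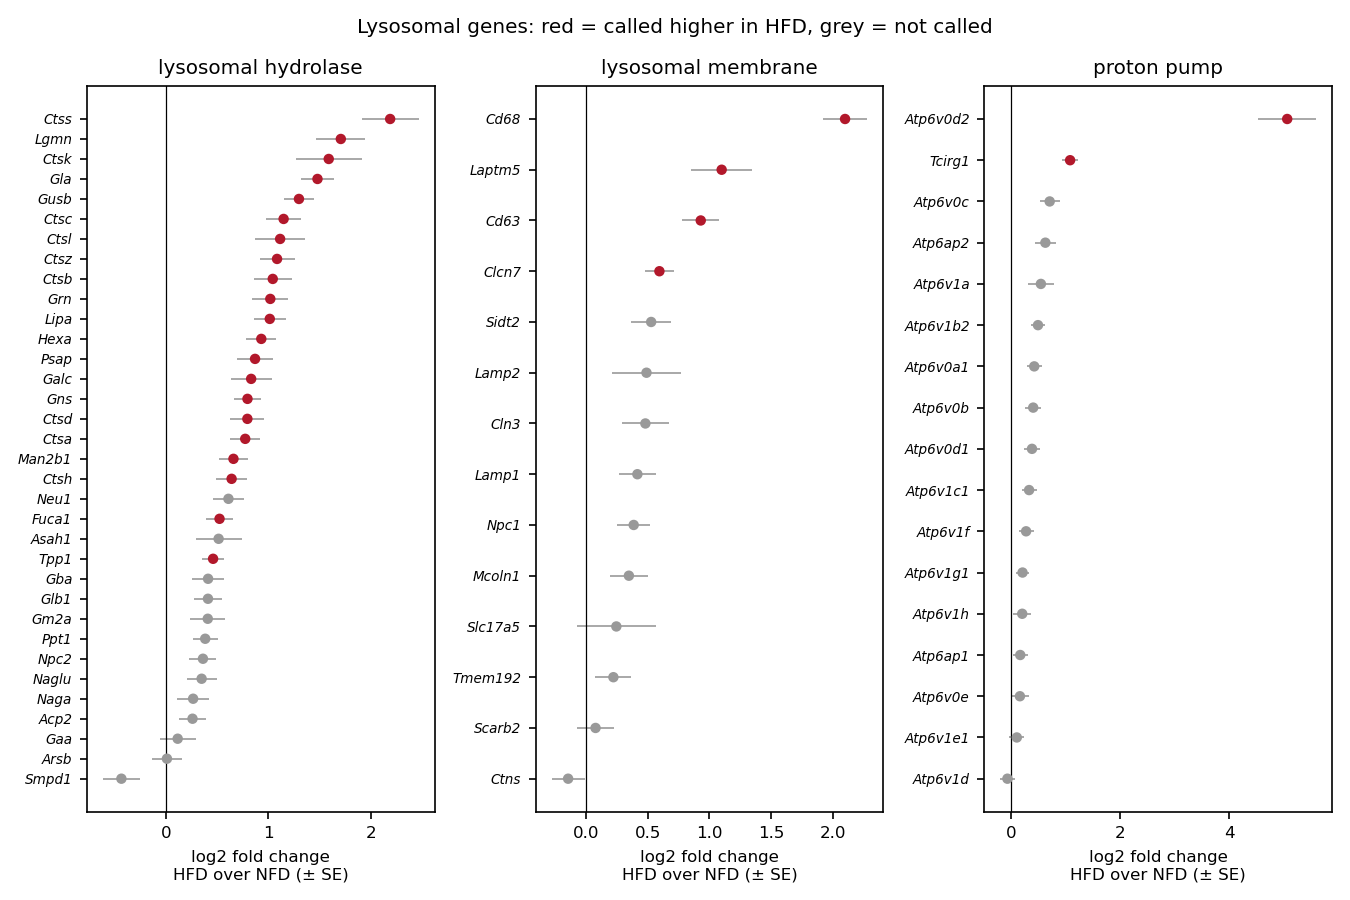
Log2 fold change of HFD over NFD with its SE (horizontal axis) for the tested lysosomal hydrolases (all but 1 of 35), lysosomal membrane proteins (14) and proton pump subunits (17). Red points were called higher and grey points were not called; in the pump, Atp6v0d2 at 5.06 stands far from the other subunits.

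Many lysosomal genes carry an 8-base element, the core of the CLEAR motif that TFEB and TFE3 bind, near their start. The element GTCACGTG was searched on both strands in the RefSeq promoter windows of GRCm38.p6, 250 bases before to 50 bases after each start. It lay in 12 of the 53 lysosomal and proton pump genes that had a window (22.6%), and in 4.38% of all tested genes with a window. It was in 5 of 23 called members (21.7%) and in 7 of 30 members not called (23.3%). A match shows the letters only. The windows of 4 called genes are shown because they put the element beside genes whose levels are given here, with the element in capitals, 5′ to 3′ on the strand of the gene; the stretch of Ctsa holds 2 matches, 1 on each strand.
Gla, chrX:134601168-134601227, minus strand: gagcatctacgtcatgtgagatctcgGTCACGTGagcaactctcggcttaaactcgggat
Lgmn, chr12:102439110-102439169, minus strand: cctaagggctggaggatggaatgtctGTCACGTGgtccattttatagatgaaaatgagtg
Ctsa, chr2:164833733-164833792, plus strand: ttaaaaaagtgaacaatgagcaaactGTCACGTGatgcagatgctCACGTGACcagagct
Clcn7, chr17:25133348-25133407, plus strand: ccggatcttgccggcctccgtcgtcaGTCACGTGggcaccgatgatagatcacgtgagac

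These 4 genes differed in size of change. Gla rose by 1.48 ± 0.16 and Lgmn by 1.71 ± 0.24 on the log2 scale, and both kept their call in every fit. Ctsa, the protective protein cathepsin A, rose by 0.78 ± 0.14 (edgeR adjusted p = 0.0186), with 256 to 334 CPM in HFD and 149 to 185 CPM in NFD. On chromosome 2, Ctsa (164832873 to 164841032, plus strand) overlaps Pltp (164839518 to 164857711, minus strand), also called higher. The counting strand is not given, and whether the 2 genes share reads was not tested. Clcn7, a chloride and proton exchanger, rose by 0.59 ± 0.12 (edgeR adjusted p = 0.0229), with 60.7 to 73.8 CPM in HFD and 41.3 to 47.3 CPM in NFD. Ctsa lost its call without NFD replicate 1, 3 or 4 and Clcn7 without any 1 of the NFD libraries (adjusted p up to 0.104).

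Called genes of lesion macrophages were higher, and those of macrophages resident in the artery lower. Of 20 lesion genes 14 were higher (70.0%) and none lower, with a median of 1.30. The 14 include Mmp12, Gpnmb, Cd68 and Abcg1, the markers given with the comparison. From 10 to 14 were called without 1 library and 11 without HFD replicates 1 and 4. The summed level of the list was 7115 to 13950 CPM in HFD and 6509 to 8192 CPM in NFD, so the groups overlapped. Of 14 resident genes none was higher and 2 were lower (14.3%, against 1.64% of all genes tested), with a median of -0.57 and 11 members negative. The 2 were Cd209d and Cd209f, C-type lectins of the SIGN family: Cd209d had 6.19, 7.72, 6.03 and 10.5 CPM in HFD and 15.6, 19.2, 14.4 and 17.7 CPM in NFD. Neither was called when any 1 of the NFD libraries was left out (adjusted p up to 0.105), and the list had 0 to 4 lower members in the fits without 1 library. Cbr2, a reductase of resident macrophages and airway cells, had 84.7, 176, 87.3 and 39.5 CPM in HFD and 351, 575, 231 and 246 CPM in NFD, and missed the threshold (edgeR adjusted p = 0.052).

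Of 15 scavenger receptors tested, 2 were higher (13.3%, against 3.18% of all genes tested) and 1 lower (6.7%, against 1.64%), with a median of 0.00. Msr1, the class A receptor for modified lipoproteins, had 46.5, 18.8, 17.8 and 13.4 CPM in HFD and 8.55, 8.12, 5.10 and 5.98 CPM in NFD. Cxcl16, a membrane chemokine that also binds oxidised lipoproteins, had 76.2 to 129 CPM in HFD and 23.9 to 35.4 CPM in NFD (log2 fold change 1.67 ± 0.19, edgeR adjusted p = 0.00253). Marco, a related receptor for bacteria and particles, was lower, with 29.1, 62.9, 11.6 and 78.1 CPM in HFD and 258, 255, 204 and 266 CPM in NFD (log2 fold change -2.44 ± 0.50, edgeR adjusted p = 0.0277). Msr1 lost its call without any 1 of the NFD libraries, and Marco without any of these or HFD replicate 1, while Cxcl16 kept its own in every fit. Among 10 tested genes of osteoclast type, Ctsk, Atp6v0d2 and Clcn7 were higher and none was lower, while Ocstamp, Dcstamp, Calcr and Oscar were below the count filter. The list had 1 higher member without any 1 of the NFD libraries and 2 without HFD replicates 1 and 4.

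Receptors that signal through ITAM adaptors had the highest share of called members. Of 17 Fc receptor and ITAM genes, 15 were higher (88.2%) and none lower, with a median of 1.89, and all 17 were positive. The count was 11 without NFD replicate 1 or 3 and 13 without HFD replicates 1 and 4. Tyrobp, the adaptor DAP12, had 218, 185, 190 and 202 CPM in HFD and 71.1, 83.4, 52.0 and 74.5 CPM in NFD. Clec4d (chromosome 6, 123262111 to 123275265, plus strand), a C-type lectin that recognises mycobacterial glycolipid, had 23.2, 20.3, 27.9 and 35.7 CPM in HFD and 2.03, 2.69, 1.36 and 1.90 CPM in NFD (log2 fold change 3.74 ± 0.27, edgeR adjusted p = 0.000658). Its relative Clec4e, Mincle, had 18.5, 20.9, 10.5 and 51.3 CPM in HFD and 0.909, 1.42, 0.858 and 0.635 CPM in NFD. Trem1, an amplifier of neutrophil and monocyte activation, had 11.5, 9.59, 7.84 and 25.8 CPM in HFD and 0.374, 0.580, 0.555 and 0.582 CPM in NFD. Both Clec4e and Trem1 were highest in HFD replicate 4.

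Subunits of the phagocyte oxidase, which makes superoxide, were also higher, 4 of 6 tested with a median of 1.19. Cybb, the catalytic subunit, had 155, 91.9, 66.6 and 93.9 CPM in HFD and 35.9, 37.2, 34.4 and 23.5 CPM in NFD (log2 fold change 1.64 ± 0.26, edgeR adjusted p = 0.0108). Ncf4, its p40 regulator, had 31.6 to 63.9 CPM in HFD and 10.5 to 15.9 CPM in NFD. Cyba, the partner of Cybb in the membrane, had 98.2 to 170 CPM in HFD and 47.0 to 63.7 CPM in NFD, and lost its call without NFD replicate 3 (adjusted p = 0.0535). The list had 2 higher members without NFD replicate 3.

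Complement genes rose in part, 10 of 20 higher and none lower with a median of 0.85. Their summed level was 10180 to 14570 CPM in HFD and 8749 to 12810 CPM in NFD, so the groups overlapped. C1qb, a chain of the first component, had 662, 421, 512 and 426 CPM in HFD and 200, 223, 147 and 237 CPM in NFD (log2 fold change 1.32 ± 0.21, edgeR adjusted p = 0.0104). C5ar1, the receptor for the fragment C5a, had 24.1, 11.9, 19.4 and 27.4 CPM in HFD and 4.38, 5.43, 4.69 and 5.61 CPM in NFD. Both kept their call in every fit, and the count for the list fell to 3 without NFD replicate 3 and to 7 without HFD replicates 1 and 4.

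Single genes of innate sensing were highest in HFD replicate 4, such as Cd14 and Tlr2, although the mean log2 CPM of the Toll-like receptor list was highest in HFD replicate 1, at 4.70, against 4.05, 4.00 and 4.32 in HFD replicates 2 to 4 and 2.88 to 3.45 in NFD. Of 13 Toll-like receptor genes, 3 were higher (Cd14, Tlr2 and Tlr7) with a median of 0.91. Cd14, the co-receptor for lipopolysaccharide, had 88.7, 60.7, 61.7 and 247 CPM in HFD and 17.6, 26.05, 15.3 and 20.7 CPM in NFD. Tlr2 had 44.6, 38.9, 28.2 and 154 CPM in HFD and 13.6, 15.9, 12.4 and 12.8 CPM in NFD. The 2 groups did not overlap in either gene, and Tlr7, which senses RNA, was highest in HFD replicate 1 instead, with 19.5 to 39.7 CPM in HFD and 8.73 to 15.1 CPM in NFD. All 3 lost their call without NFD replicate 1, 3 or 4 (adjusted p up to 0.130).

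Of 15 interleukin-1 and inflammasome genes, 6 were higher and all 15 were positive, with a median of 0.72. Il1b (chromosome 2, 129364570 to 129371139, minus strand) had 17.5, 27.9, 20.4 and 115 CPM in HFD and 2.19, 1.74, 2.37 and 1.11 CPM in NFD (log2 fold change 4.60 ± 0.69, edgeR adjusted p = 0.00901). Its antagonist Il1rn rose as well, with 39.0, 44.7, 51.3 and 122 CPM in HFD and 3.85, 4.798, 3.73 and 5.71 CPM in NFD, and so did the decoy receptor Il1r2, with 7.91 to 17.3 CPM in HFD and 1.41 to 3.17 CPM in NFD. Ligand, antagonist and decoy kept their calls in every fit, while the list had 3 higher members without NFD replicate 1, 3 or 4. Of 15 NF-kappaB feedback genes, Nfkbia, Nfkbiz and Zc3h12a were higher; the list had 0 such members without NFD replicate 1 or 3 and 1 without HFD replicates 1 and 4.

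CC chemokines had 10 of 19 members higher and none lower, with a median of 1.63. Ccl7, a chemokine for monocytes, had 63.2, 22.2, 34.6 and 150 CPM in HFD and 1.34, 1.69, 1.87 and 1.85 CPM in NFD (log2 fold change 5.32 ± 0.62, edgeR adjusted p = 0.00302). Ccl9 had 220 to 441 CPM in HFD and 71.6 to 116 CPM in NFD, with its highest level in HFD replicate 1. The count was 4 without NFD replicate 1, 3 or 4 and 10 without HFD replicates 1 and 4. Among 13 CXC chemokine genes 6 were higher, with a median of 1.70, but 1 without NFD replicate 3 and 3 without HFD replicates 1 and 4.

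Neutrophil genes had the highest median of the lists, 3.74, with 13 of 17 higher (76.5%) and none lower. Their summed level was 403.5 to 1679 CPM in HFD and 166.7 to 518.6 CPM in NFD, so the groups overlapped. S100a9, a calcium-binding protein that fills the neutrophil cytosol, had 201, 307, 98.1 and 480 CPM in HFD and 9.03, 11.1, 12.4 and 11.9 CPM in NFD (log2 fold change 4.61 ± 0.46, edgeR adjusted p = 0.00199). Mmp8, the neutrophil collagenase, had 37.5, 23.1, 7.37 and 46.7 CPM in HFD and 1.18, 1.37, 1.16 and 0.370 CPM in NFD. Csf3r, the receptor for the growth factor G-CSF, had 75.9, 66.7, 45.6 and 44.1 CPM in HFD and 11.4, 13.2, 13.9 and 10.7 CPM in NFD. HFD replicate 3 was the lowest HFD library for S100a9 and Mmp8 and still lay above every NFD library. The count was 9 without NFD replicate 1 or 3 and also without HFD replicates 1 and 4. Erythroid genes, a sign of blood in the sample, had 7 of 7 positive and none called by edgeR or DESeq2 (1 at an unadjusted p under 0.05), with a mean log2 CPM of 7.10, 7.94, 6.81 and 8.73 in HFD and 7.54, 6.95, 7.07 and 6.14 in NFD, and their part in the neutrophil result was not tested.

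Lymphocyte genes split the HFD libraries. The mean log2 CPM of 20 T and NK cell genes was 2.68, 4.35, 2.34 and 4.48 in HFD replicates 1 to 4 and 3.90, 3.83, 3.52 and 3.503 in NFD replicates 1 to 4, so HFD replicates 1 and 3 lay below every NFD library and HFD replicates 2 and 4 above. None of the 20 was called by edgeR or by DESeq2, and 2 had an unadjusted p under 0.05. Cd3e, a chain of the T cell receptor complex, had 6.06, 30.9, 4.83 and 33.3 CPM in HFD and 26.4, 20.0, 19.3 and 22.4 CPM in NFD (edgeR adjusted p = 0.867). Cd79a, of the B cell receptor, had 88.2, 342, 54.2 and 458 CPM in HFD and 130, 144, 114 and 117 CPM in NFD (edgeR adjusted p = 0.429).

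The same 2 libraries were high for other lymphoid measures. MHC class II genes had a mean log2 CPM of 7.08, 8.10, 6.39 and 8.39 in HFD and 7.14, 7.21, 6.78 and 6.91 in NFD, and 1 of 10, H2-DMb1, was called higher; it has a near copy, so its count is uncertain, and it lost its call without NFD replicate 1 or 3. No member of the list was called without HFD replicates 1 and 4. B and plasma cell genes had 3 of 15 higher (Ighm, Igkc and Prdm1), with none left without any 1 NFD library or without HFD replicates 1 and 4. Igkc, the constant part of the kappa light chain, had 1937, 4838, 836 and 4340 CPM in HFD and 559, 827, 405 and 427 CPM in NFD (log2 fold change 2.43 ± 0.52, edgeR adjusted p = 0.0334). Among 28 cell cycle genes 27 were positive, with a median of 0.81, yet only Mki67 was called (edgeR adjusted p = 0.049). That is 3.6% of the list, against 3.18% of all genes tested called higher. In the list, 15 genes had an unadjusted p under 0.05, and DESeq2 called 5 higher. The edgeR fits without 1 library called 0 to 10 higher, and 0 were called without HFD replicates 1 and 4. Mki67 kept its call in 1 of the 8 fits without 1 library.

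**Figure D4:**
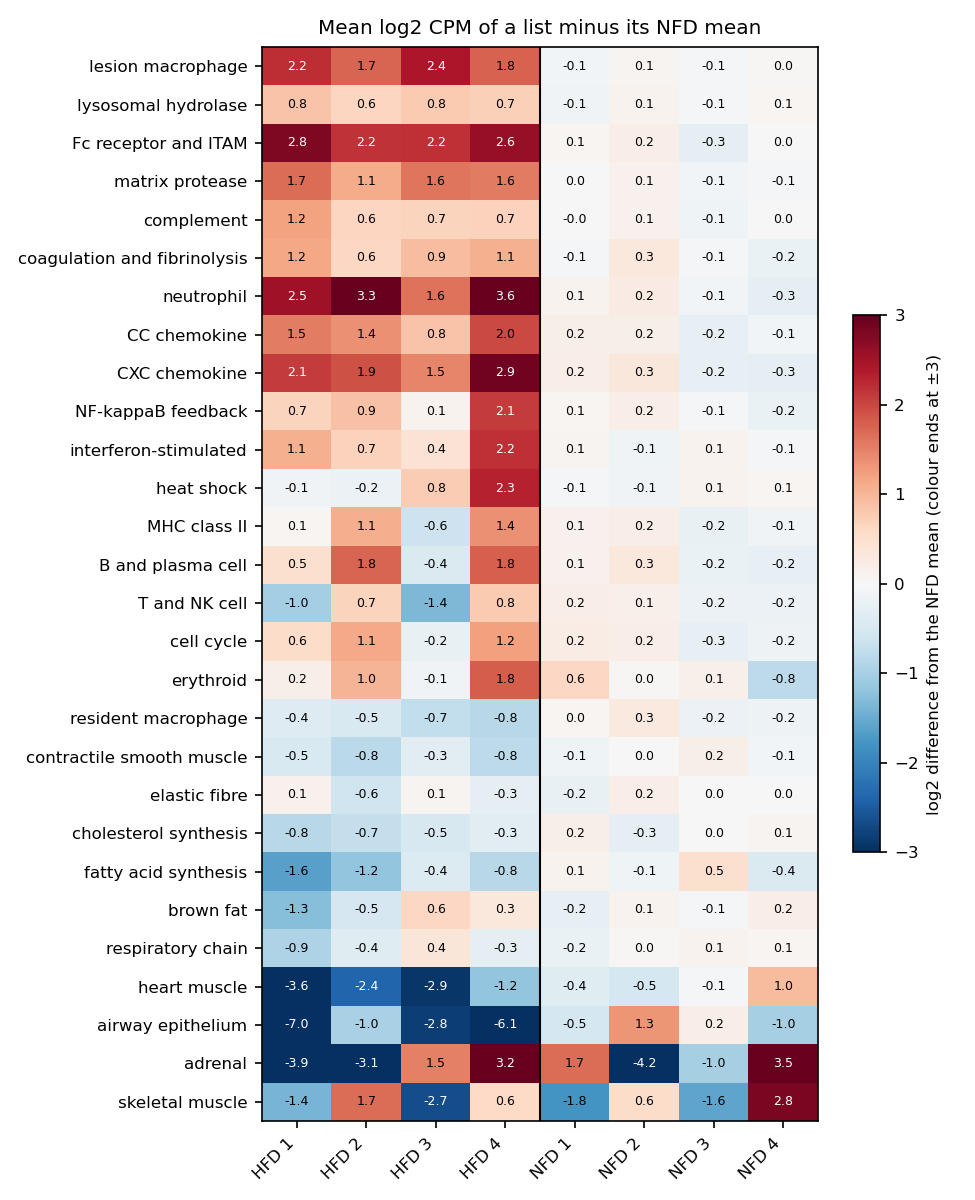
Mean log2 CPM of selected gene lists in each library minus the mean of the list over the 4 NFD libraries, HFD replicates 1 to 4 on the left and NFD replicates 1 to 4 on the right. The other lists are not drawn. Lesion macrophage and Fc receptor lists were high in all HFD libraries, T and NK cell genes were low in HFD replicates 1 and 3, and heat shock genes were highest in HFD replicate 4, followed by HFD replicate 3.

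Interferon-stimulated genes were positive in 21 of 21 cases, with a median of 1.29, and 4 were called higher. Oas3, a sensor of double-stranded RNA, had 15.6, 23.8, 9.59 and 49.6 CPM in HFD and 4.97, 4.32, 6.36 and 3.49 CPM in NFD (log2 fold change 2.36 ± 0.47, edgeR adjusted p = 0.025). Irf7, the transcription factor that drives type I interferon, had 122, 163, 61.6 and 283 CPM in HFD and 42.9, 39.1, 43.4 and 50.6 CPM in NFD. The count was 0 without any 1 of the NFD libraries, at most 9 in the fits without 1 library and 1 without HFD replicates 1 and 4. In the list, 18 genes had an unadjusted p under 0.05, and DESeq2 called 11 higher.

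Matrix proteases and their inhibitors had 9 of 18 members higher, the marker Mmp12 among them, and 1 lower (Adam12), with a median of 1.21. Their summed level was 1510 to 2420 CPM in HFD and 1413 to 1593 CPM in NFD, so the groups overlapped. Mmp14, the membrane-bound activator of other metalloproteases, had 85.5, 58.6, 77.1 and 69.3 CPM in HFD and 30.05, 34.3, 26.3 and 25.4 CPM in NFD (log2 fold change 1.32 ± 0.16, edgeR adjusted p = 0.00306). Adam8, a sheddase of leukocytes, had 65.0, 45.1, 64.9 and 47.9 CPM in HFD and 16.1, 18.6, 8.23 and 8.62 CPM in NFD. Both kept their call in every fit, and the list had 6 to 11 higher members without 1 library and 7 without HFD replicates 1 and 4.

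Genes of coagulation moved in both directions. Of 18 tested, 6 were higher and 1 lower, with a median of 0.55. F10, coagulation factor X (chromosome 8, 13037308 to 13056676, plus strand), had 21.1, 10.4, 13.3 and 19.8 CPM in HFD and 1.66, 1.79, 0.808 and 1.32 CPM in NFD (log2 fold change 3.53 ± 0.34, edgeR adjusted p = 0.00131). F7, its activating protease and its neighbour on the chromosome (13026034 to 13035809, plus strand), had 6.13, 3.69, 8.58 and 4.10 CPM in HFD and 0.214, 0.633, 0.303 and 0.106 CPM in NFD. The F7 level in NFD replicate 4 was below the 0.164 CPM that a count of 0 allows there. F3, tissue factor, the partner of factor VII, was lower, with 29.1, 31.1, 30.2 and 21.3 CPM in HFD and 54.5, 70.6, 61.6 and 34.2 CPM in NFD (log2 fold change -0.98 ± 0.23, edgeR adjusted p = 0.0396). F10 and F7 kept their call in every fit and F3 in 2 of 8, and the count of higher members was 3 without NFD replicate 1, 3 or 4.

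Lipid mediators, iron and sugar use gave few calls each. Alox5ap, which presents arachidonic acid to 5-lipoxygenase, had 89.4, 57.8, 54.8 and 59.4 CPM in HFD and 18.6, 23.1, 16.4 and 24.8 CPM in NFD (log2 fold change 1.66 ± 0.21, edgeR adjusted p = 0.00339), and it and Pla2g7 were the 2 of 17 leukotriene and prostanoid genes called higher. Ptgs1, cyclooxygenase 1, was lower, at 24.3 to 29.3 CPM in HFD and 36.6 to 48.1 CPM in NFD. Slc11a1, which exports iron out of the phagosome, had 45.6 to 63.6 CPM in HFD and 18.3 to 27.2 CPM in NFD, and Lcn2, which binds siderophores, had 423, 177, 54.4 and 218 CPM in HFD and 16.0, 21.2, 12.2 and 14.0 CPM in NFD. They and Steap4 were the 3 of 17 iron and haem genes called higher. Of 21 genes of glycolysis, Hk3 and the lactate exporter Slc16a3 were higher and Slc2a4, the insulin-regulated glucose carrier of fat and muscle, was lower, with a median of -0.26. Ptgs1 kept its call in 2, Slc2a4 in 1, Steap4 in 3, Pla2g7 in 4 and Slc16a3 in 5 of the 8 fits, and Alox5ap, Slc11a1, Lcn2 and Hk3 in all 8.

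**Figure D5:**
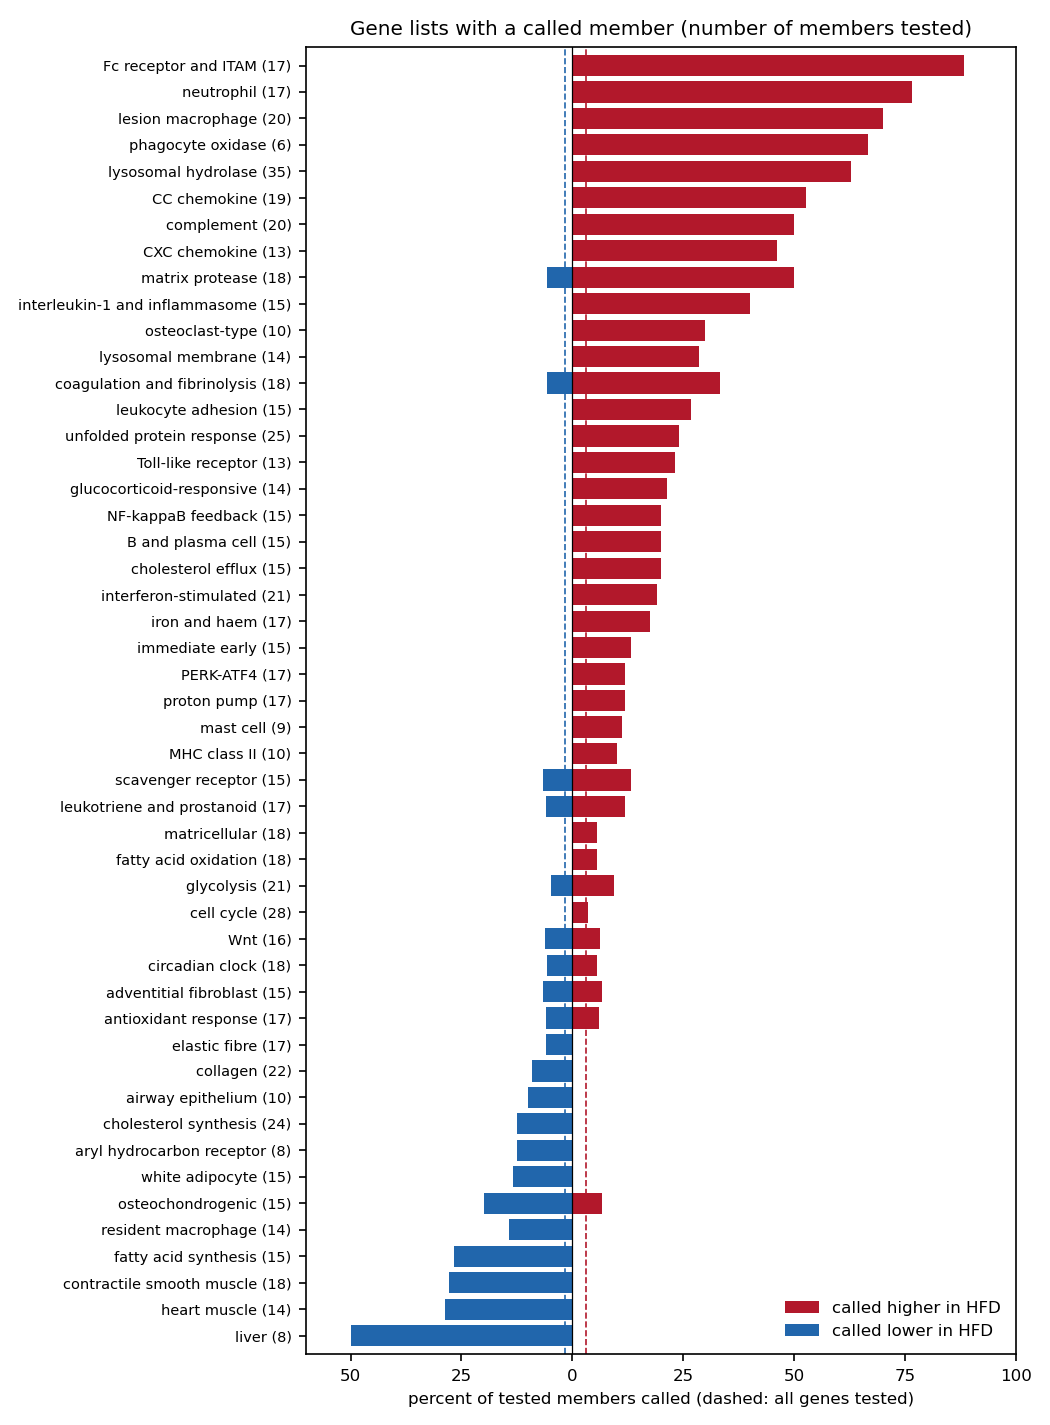
Percent of the tested members of each gene list called higher (red, to the right) or lower (blue, to the left) in HFD, with the number of members tested in brackets; lists with no called member are left out. The dashed lines mark 3.18% higher and 1.64% lower over all genes tested, and the Fc receptor and ITAM list reaches 88.2% higher.

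In the vessel wall, 18 contractile smooth muscle genes were tested, and 5 were lower (27.8%) and none higher, 17 were negative, and the median was -0.39. Tpm1, a tropomyosin, had 348, 432, 465 and 541 CPM in HFD and 835, 728, 1036 and 1403 CPM in NFD (log2 fold change -1.16 ± 0.24, edgeR adjusted p = 0.0256). Actg2, the gamma actin of smooth muscle, had 35.3 to 43.4 CPM in HFD and 54.7 to 79.1 CPM in NFD. Tpm1 and Actg2 both lost their call without HFD replicate 1, NFD replicate 1 or NFD replicate 3. The list had 1 lower member without NFD replicate 1, 3 or 4 and 0 without HFD replicates 1 and 4. The lower members Tpm1, Pln and Mylk4 are also expressed in striated muscle, and the remaining one was Cnn1, calponin. The heart muscle list was negative in 14 of 14 genes with a median of -2.07, and its summed level was 428 to 3052 CPM in HFD and 4126 to 10680 CPM in NFD. Its part in the smooth muscle result was not tested.

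Collagen and elastic fibre genes were mostly not called. Of 22 collagen genes, 2 were lower and none higher, with a median of -0.13. Col10a1, the collagen of hypertrophic cartilage (chromosome 10, 34389981 to 34397085, plus strand), had 0.129, 0.738, 0.402 and 0.422 CPM in HFD and 16.6, 19.1, 7.37 and 4.39 CPM in NFD (log2 fold change -4.77 ± 0.61, edgeR adjusted p = 0.00393). Its level in HFD replicate 1 was below the 0.197 CPM that a count of 0 allows there. The HFD values rest on few counts, so the size of the change is uncertain. Col4a4, of basement membrane, had 3.35, 2.90, 4.42 and 3.62 CPM in HFD and 9.68, 12.97, 12.8 and 10.3 CPM in NFD. Both kept their call in every fit. Of 17 elastic fibre genes only Mfap4 was lower, at 19.9 to 46.9 CPM in HFD and 58.8 to 100.8 CPM in NFD, in 3 of the 8 fits. The osteochondrogenic list had 3 of 15 lower (Acan, Col10a1 and Cytl1) and 1 higher, Tnfrsf11b, the decoy receptor osteoprotegerin, with 15.3, 4.66, 18.4 and 3.68 CPM in HFD and 1.36 to 2.35 CPM in NFD. Acan kept its call in 1 and Tnfrsf11b in 3 of the 8 fits.

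Endothelial genes gave no call in 20 tested with edgeR or DESeq2, with a median of -0.10 and 3 at an unadjusted p under 0.05. Adhesion genes had 4 of 15 higher, the endothelial receptor Vcam1, the leukocyte integrin chains Itgam and Itgb2, and Cd44, and 1 without NFD replicate 3. Among 15 adventitial fibroblast genes, Cd34, a sialomucin of stromal and endothelial cells, was lower with 142, 124, 132 and 93.4 CPM in HFD and 229, 296, 234 and 260 CPM in NFD (log2 fold change -1.05 ± 0.17, edgeR adjusted p = 0.00984). Ly6a, the stem cell antigen Sca-1, was higher in HFD but in 1 of the 8 fits only. In the Wnt list, the secreted inhibitors Frzb and Wif1 went opposite ways. Frzb had 41.3, 10.2, 33.8 and 15.5 CPM in HFD and 4.86, 6.59, 5.35 and 5.02 CPM in NFD, and Wif1 had 1.42, 1.31, 2.41 and 1.15 CPM in HFD and 8.45, 11.1, 5.00 and 3.07 CPM in NFD. Their adjusted p-values from edgeR were 0.0189 and 0.0264, and both calls were lost without NFD replicate 1 or 3.

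Called genes of lipid synthesis were lower and those of cholesterol export higher. Of 24 genes of cholesterol synthesis, 3 were lower (12.5%) and none higher, 23 were negative, and the median was -0.64. Nsdhl, a sterol dehydrogenase (chromosome X, 72918557 to 72958514, plus strand), had 17.3, 19.9, 19.9 and 17.4 CPM in HFD and 44.7, 35.7, 48.4 and 38.1 CPM in NFD (log2 fold change -1.17 ± 0.14, edgeR adjusted p = 0.00342). Sc5d, a later desaturase of the pathway, had 20.7 to 25.9 CPM in HFD and 33.8 to 60.6 CPM in NFD. Nsdhl kept its call in every fit and Sc5d lost its own without NFD replicate 1 or 3, where 1 gene of the list was called. The sterol regulatory element TCACNCCAC, searched on both strands in the same RefSeq windows, lay in 1 of the 17 genes of the list that had a window, Hmgcs1, which was not called, and in 1.40% of all tested genes with a window.

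Fatty acid synthesis had 4 of 15 lower (26.7%) and none higher, with a median of -0.89. Me1, malic enzyme, which supplies NADPH, had 104, 158, 265 and 292 CPM in HFD and 1449, 651, 1906 and 597 CPM in NFD (log2 fold change -2.49 ± 0.47, edgeR adjusted p = 0.0196). Acaca, acetyl-CoA carboxylase, had 296, 501, 797 and 655 CPM in HFD and 2385, 1844, 3330 and 1203 CPM in NFD. Both were lowest in HFD replicate 1, and both lost their call without NFD replicate 1 or 3, where no gene of the list was called, nor was any without HFD replicates 1 and 4. Fat cell genes had the same sign: of 15 white adipocyte genes 14 were negative with a median of -0.51, and Retn, resistin, a hormone of mouse fat cells, was lower at 71.0 to 137 CPM in HFD and 214 to 261 CPM in NFD (log2 fold change -1.25 ± 0.21, edgeR adjusted p = 0.0134). The summed level of the white adipocyte list was 12180 to 17150 CPM in HFD and 15660 to 22340 CPM in NFD, and its part in the fatty acid synthesis result was not tested.

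Cholesterol export gave 3 of 15 higher (Abca1, Abcg1 and Pltp) and none lower, with a median of 0.33. Abca1, which loads cholesterol on apolipoprotein A-I, had 441, 259, 252 and 250 CPM in HFD and 132, 142, 168 and 106 CPM in NFD. Pltp, the phospholipid transfer protein, had 456, 246, 358 and 224 CPM in HFD and 96.9, 134, 104 and 108 CPM in NFD (log2 fold change 1.54 ± 0.24, edgeR adjusted p = 0.00946). It overlaps Ctsa, and whether they share reads was not tested. Abca1 lost its call without any 1 of the NFD libraries and Pltp kept its own in every fit. Respiratory chain genes had 24 of 25 negative and none called by edgeR or DESeq2, with a median of -0.23 and 1 at an unadjusted p under 0.05. Of 12 brown fat genes none was called by edgeR, 2 had an unadjusted p under 0.05, and DESeq2 called 1 higher. Ucp1, the uncoupling protein of brown fat, had 324, 483, 1735 and 1767 CPM in HFD and 1926, 2357, 2001 and 3076 CPM in NFD (edgeR adjusted p = 0.262).

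Of 25 genes of the unfolded protein response 6 were higher and none lower, with a median of 0.44. Creld2, which is made on stress of the endoplasmic reticulum, had 37.3, 48.4, 44.5 and 54.5 CPM in HFD and 17.3, 20.1, 15.3 and 17.7 CPM in NFD (log2 fold change 1.39 ± 0.16, edgeR adjusted p = 0.00246), and kept its call in every fit. The list had 1 higher member without NFD replicate 1 or 3 and 3 without HFD replicates 1 and 4. In the PERK-ATF4 list 2 of 17 were higher, and of these Asns, asparagine synthetase, lost its call in all 8 fits without 1 library and Sesn2 in 6.

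Heat shock and immediate early genes were highest in HFD replicate 4. The mean log2 CPM of the heat shock list was 6.37, 6.31, 7.24 and 8.79 in HFD and 6.38 to 6.60 in NFD, so HFD replicate 3 also lay above every NFD library. That of the immediate early list was 5.10, 5.29, 5.24 and 6.69 in HFD and 4.52 to 5.03 in NFD, so all HFD libraries lay above all NFD libraries. Hspa1b, an inducible chaperone with a near copy that can share its reads, had 11.5, 11.2, 27.3 and 1005 CPM in HFD and 10.4, 11.2, 12.2 and 9.04 CPM in NFD, and was not called (edgeR adjusted p = 0.155). Hsph1, a partner of the same chaperone, had 35.5, 35.6, 124 and 447 CPM in HFD and 34.7 to 36.8 CPM in NFD. No heat shock gene of 13 was called by edgeR, 8 had an unadjusted p under 0.05, and DESeq2 called 1 higher and 1 lower. Junb, a subunit of AP-1, had 133, 145, 118 and 446 CPM in HFD and 33.1 to 60.6 CPM in NFD, and Zfp36, which destabilises cytokine messages, had 214, 245, 168 and 534 CPM in HFD and 75.5 to 118 CPM in NFD. These were the 2 of 15 immediate early genes called, and both lost their call without NFD replicate 1, 3 or 4. HFD replicate 4 was also highest for Il1b, Cd14, Tlr2 and Trem1 above, and the part of the heat shock response in those results was not tested.

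Of the smaller lists, the metallothioneins Mt1 and Mt2 and Errfi1 were the 3 of 14 glucocorticoid-responsive genes called higher. Mt2 had 1167, 327, 338 and 1030 CPM in HFD and 108, 142, 127 and 142 CPM in NFD (log2 fold change 2.46 ± 0.43, edgeR adjusted p = 0.0164), and lost its call without NFD replicate 1, 3 or 4, where no gene of the list was called higher. Mt1 kept its call in 2 of the 8 fits and Errfi1 in 1. Cyp1a1, the target of the aryl hydrocarbon receptor, was lower, with 4.97, 25.2, 26.7 and 14.1 CPM in HFD and 51.4, 61.5, 69.8 and 69.7 CPM in NFD (log2 fold change -1.83 ± 0.43, edgeR adjusted p = 0.0466), in 3 of the 8 fits. Gsta3, a glutathione transferase, was lower at 8.96 to 24.3 CPM in HFD and 37.8 to 81.0 CPM in NFD, and lost its call without NFD replicate 1 or 3. In the circadian list Bhlhe40 was higher (5.6%, against 3.18% of all genes tested) and Cry2 lower (5.6%, against 1.64%), with a median of 0.21 over 18 genes. Bhlhe40 lost its call without NFD replicate 1 and Cry2 in 5 fits.

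Genes of neighbouring organs were present at levels that varied between libraries. Of the 14 heart muscle genes, all of them negative, 4 were lower (28.6%), with 0 to 11 in the fits without 1 library, the lowest without NFD replicate 3, and 9 without HFD replicates 1 and 4. Tnnt2, cardiac troponin T, had 87.3, 92.8, 111 and 189 CPM in HFD and 375, 249, 562 and 611 CPM in NFD (log2 fold change -1.91 ± 0.34, edgeR adjusted p = 0.0164). Nppb, the natriuretic peptide of ventricle and atrium, had 0.709, 0.795, 0.469 and 6.57 CPM in HFD and 32.2, 59.2, 35.2 and 64.0 CPM in NFD. Tnnt2 lost its call without NFD replicate 3 or 4 and Nppb without HFD replicate 1 or NFD replicate 1 or 3. How much heart tissue each sample held was not tested.

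Of 14 liver genes listed, 8 were tested, while Apoa2, Apob, Ttr, Fgb, Fga and Ambp were below the count filter. Among the 8 tested, 4 were lower and none higher, with a median of -0.86, and this fit gives no direction for the genes below the filter. DESeq2, run without that filter, called 7 of the 14 lower and none higher. None of the 8 was lower without NFD replicate 3, and 1 was lower without HFD replicates 1 and 4. Alb, albumin, had 0.258, 1.25, 3.22 and 0.663 CPM in HFD and 37.0, 7.33, 12.2 and 5.13 CPM in NFD, and kept its call in 1 of 8 fits. All 10 airway genes tested were negative, with a median of -2.65, and 1, Cyp2f2, was lower, in 1 of 8 fits. Scgb1a1, the secretoglobin of club cells, had 0.129, 462, 178 and 3.62 CPM in HFD and 893, 1521, 826 and 533 CPM in NFD (edgeR adjusted p = 0.427). The HFD level in replicate 1 was below the 0.197 CPM that a count of 0 allows there. Adrenal and skeletal muscle genes varied widely within both diets and gave no call by edgeR or DESeq2, and none had an unadjusted p under 0.05: Cyp11b1, of the adrenal cortex, had 0.193, 1.08, 146 and 549 CPM in HFD and 231, 0.105, 17.0 and 855 CPM in NFD, and Acta1, of skeletal muscle, had 13.7, 472, 5.97 and 77.3 CPM in HFD and 7.003, 155, 12.01 and 589 CPM in NFD. The Cyp11b1 levels in HFD replicate 1 and NFD replicate 2 were below the 0.197 and 0.160 CPM that a count of 0 allows there.

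Among 18 matricellular genes, Spp1, osteopontin, a secreted phosphoprotein of macrophages and bone, was the 1 called (5.6%, against 3.18% of all genes tested). It had 1260, 289, 1567 and 220 CPM in HFD and 7.32, 6.75, 5.70 and 6.66 CPM in NFD (log2 fold change 6.98 ± 0.74, edgeR adjusted p = 0.00216), and kept its call in every fit. Of 9 mast cell genes 1, Hdc, was higher, and it lost its call without NFD replicate 1, 3 or 4. None of 10 mesothelial genes was called by edgeR, 9 were negative, 5 had an unadjusted p under 0.05, and DESeq2 called 2 lower. None of 12 nerve and glia genes was called by edgeR, 1 had an unadjusted p under 0.05, and DESeq2 called 1 lower. Of 5 stratified epithelium and 4 thymus genes tested, none was called by edgeR or DESeq2 and none had an unadjusted p under 0.05.

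Of the 720 called genes, 194 were in 1 or more of the 61 lists counted and 526 in none. Of these lists, 12 had no called member, among them T and NK cells, endothelium, heat shock, brown fat, the respiratory chain, skeletal muscle, the adrenal gland and erythroid cells.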

How the data were processed

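Poly(A) RNA of mouse aorta was sequenced, per the labels' protocols, and the libraries were grouped by their titles. Per the file headers, the authors deposited 1 table of 22183 genes with a count and an FPKM value, which is scaled by gene length and depth, for every library. Between 8.53% and 9.43% of the deposited counts of a library are not whole, so the columns were read as estimates (expected counts) and rounded before testing. The build is GRCm38, per the submitters' processing notes; which aligner, counter and annotation made the counts is not given in the sources used here. Gene positions come from GENCODE M21 (GRCm38), found by identifier for 22128 of the genes, and promoter windows from RefSeq.

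HFD and NFD libraries were compared in edgeR 4.0.16 under R 4.3.3 by its robust quasi-likelihood F-test (TMM factors 0.920 to 1.07) after filterByExpr (minimum count 10, minimum total 15), with Benjamini-Hochberg adjustment over 14918 genes. CPM is counts-per-million of the TMM-scaled totals, log2 CPM has a prior count of 2, and the SE is the size of the log2 fold change divided by the square root of F. Alternatives were other scalings and filters, DESeq2 1.42.0, limma 3.58.1 (voom, and log2(FPKM + 1) or log2(FPKM + 0.1)), the replicate number as a block, and left-out libraries. The script was tested on simulated data. Named genes were the 12 with the lowest adjusted p each way, up to 4 of each list and a short panel. The 12 were taken from genes with a mean of 5 CPM or more. Predicted genes, immunoglobulin and T cell receptor segments and genes whose near copies can share reads were left out of the 12. Genes described by list membership beyond these were chosen after their values were seen. The members and lists were chosen with earlier results of these data known. Counting strand is not given, so overlapping genes and near copies are uncertain. Some genes that the rule names are counted in their lists but not reported here.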

Additional observations from a re-analysis of the deposited data

Results flagged for a closer look

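In 284 groups of 4 libraries (142 genes, HFD and NFD apart), 19 held 1 library whose gap to the nearest of the others was larger, relative to the range of the group, than Dixon's 95% critical value. Chance flags about 1 in 20 groups. HFD replicate 4 stood apart in 8 of the 19, always as the highest HFD library. It had 247 CPM of Cd14 (other HFD libraries 60.7 to 88.7), 154 CPM of Tlr2 (28.2 to 44.6), 115 CPM of Il1b (17.5 to 27.9) and 122 CPM of Il1rn (39.0 to 51.3). It also had 446 CPM of Junb (118 to 145), 298 CPM of Atf3, a stress-induced transcription factor (26.1 to 30.5), 1005 CPM of Hspa1b (11.2 to 27.3) and 6.57 CPM of Nppb (0.469 to 0.795).

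HFD replicate 1 was flagged as the highest HFD library for 5 genes. It had 46.5 CPM of Msr1 (others 13.4 to 18.8), 441 CPM of Abca1 (250 to 259), 89.4 CPM of Alox5ap (54.8 to 59.4), 100.7 CPM of Il1r1, the signalling receptor for interleukin-1 (50.2 to 53.1), and 82.5 CPM of Tcirg1 (59.8 to 60.8). HFD replicate 2 had the lowest level of Hk3, 23.8 CPM (others 35.9 to 37.5), and the highest of Acta1, 472 CPM (5.97 to 77.3).

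Among the NFD libraries, replicate 1 had 0.374 CPM of Trem1 (others 0.555 to 0.582) and 8.87 CPM of Slc15a3 (7.78 to 7.96). NFD replicate 3 had 204 CPM of Marco (others 255 to 266). NFD replicate 2 had 14.9 CPM of Hdc, the histidine decarboxylase of mast cells and neutrophils (8.38 to 8.93). In Trem1, Slc15a3, Marco and Hdc the HFD libraries still did not overlap the NFD libraries.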

How the results depend on the processing

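Leaving out 1 library gave 178 to 1181 called genes, 124 to 759 higher, 40 to 422 lower and 171 to 760 at 2-fold or more, against 720, 475, 245 and 532 with all 8. Without HFD replicates 1 and 4 there were 374 called, 259 higher, 115 lower and 312 at 2-fold or more. DESeq2 called 1703 genes, 985 higher, 718 lower and 1018 at 2-fold or more. On log2(FPKM + 1) limma-trend called 320 higher and 416 lower, and on log2(FPKM + 0.1) 328 higher and 381 lower; upper-quartile scaling gave 407 and 332. The cause was not tested. RLE factors, both filters and limma-voom stayed within 1.5 times of the counts with all libraries. With the replicate block 776 genes were called, 441 higher and 335 lower; the deviations of same-numbered HFD and NFD libraries correlated at 0.082, 0.405, 0.214 and 0.299. HFD replicates 2 to 4 correlated best with their own number, as a hint from the data, and HFD replicate 1 with another (0.366), so the numbers were not taken to pair the libraries; 21 named genes lost their call with the block. Of 126 named genes called, 58 kept their call in all 8 fits without 1 library and 68 did not, most without NFD replicate 3. No called named gene changed direction under any alternative run. Of genes that were not called, the log2 fold change of Cd3e ran between -0.70 and 0.079, of Cyp11b1 between -2.52 and 1.07 and of Acta1 between -2.56 and 1.30 without 1 library, and that of Acta1 was 0.27 without HFD replicates 1 and 4. Genes near 1 CPM rest on few counts.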

Other observations

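Genes in none of the lists described above held most of the calls. Gpr137b, a protein of the lysosomal membrane, had 83.4, 76.9, 90.8 and 100.4 CPM in HFD and 35.2, 34.4, 31.04 and 31.8 CPM in NFD (log2 fold change 1.41 ± 0.13, edgeR adjusted p = 0.00131). Plekha6 had 13.5 to 16.3 CPM in HFD and 26.4 to 31.3 CPM in NFD. Inka2, an inhibitor of the kinase PAK4, had 5.80, 6.42, 7.71 and 6.45 CPM in HFD and 18.2, 15.4, 16.2 and 15.7 CPM in NFD (log2 fold change -1.31 ± 0.17, edgeR adjusted p = 0.00369). Tob1, an antiproliferative protein, had 45.7 to 58.1 CPM in HFD and 99.9 to 155 CPM in NFD.

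Angptl7, a secreted angiopoietin-like protein, had 1.999, 3.58, 2.28 and 4.34 CPM in HFD and 11.1, 18.9, 14.5 and 12.7 CPM in NFD (log2 fold change -2.22 ± 0.30, edgeR adjusted p = 0.00478). Tmem45b had 52.6 to 85.0 CPM in HFD and 169 to 385 CPM in NFD. Tcap, the sarcomere protein telethonin, had 29.5, 57.4, 35.3 and 57.5 CPM in HFD and 151, 140, 264 and 302 CPM in NFD. It is a gene of striated muscle, and the heart muscle list was also lower in HFD; the part of heart tissue in its result was not tested. All 7 genes kept their call in each of the 8 fits without 1 library, but they too were picked for a low adjusted p in these libraries. Acot1, a thioesterase, was the only gene called higher of the 18 in the fatty acid oxidation list (5.6%, against 3.18% of all genes tested). It had 14.1, 20.8, 18.2 and 8.08 CPM in HFD and 4.06, 6.22, 3.13 and 4.60 CPM in NFD, and lost its call without NFD replicate 1, 3 or 4.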
